A study of Mus musculus with 12 samples.

Results

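The 9 genes described here belong to the WNT signalling pathway: the secreted ligands Wnt5a, Wnt5b, Wnt3 and Wnt3a, the secreted inhibitors Sfrp1 and Dkk1, and the genes Axin2, Lef1 and Sp5, which the pathway switches on in many tissues. They were measured on Affymetrix mouse arrays in germ cells made in culture and in germ cells of the embryo. Of the 20 probe sets whose annotation names 1 of these genes and no other, the one of highest mean signal on the 12 arrays stood for its gene. The 9 genes are among 18194 genes with such a probe set, and 7 of the 9 passed the filter for testing, as did 13436 genes in all.

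Primordial germ cells (PGCs) are the embryonic precursors of eggs and sperm, and PGC-like cells (PGCLCs) are their counterpart induced from embryonic stem cells. The study set cultured cells beside embryonic ones in 6 groups of 2 arrays. Female PGCLCs were taken at day 3 (d3), at day 6 (d6 female), and at day 3 followed by 6 days in an aggregate with somatic cells of female E12.5 gonads (d3ag6). Male PGCLCs were taken at day 6 (d6 male). All PGCLCs had a C57BL/6 background and the transgene pair BVSC, which places mVenus under Blimp1 (gene Prdm1) and ECFP under stella (gene Dppa3). PGCs came from female embryos at E12.5 and from embryos of unknown sex at E9.5, out of matings of a C57BL/6 stella-EGFP male with a wild-type BDF1 female. Every sample was sorted on reporter fluorescence, and cDNA equal to 5 ng of RNA, or 500 cells, was amplified by PCR.

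WNT ligands are lipid-modified proteins that bind Frizzled receptors. In the canonical branch, with LRP co-receptors, they stop the destruction of beta-catenin, which then enters the nucleus and acts with TCF and LEF factors. In the mouse, Wnt3 of the epiblast is needed for PGCs to form, and Wnt5a, which signals through Ror2 without beta-catenin in many settings, is known for its part in the migration of PGCs to the gonad. Axin2 is a scaffold of the beta-catenin destruction complex and a widely used readout of canonical signalling. Sp5 is a zinc finger factor induced by the pathway, and Lef1 is both a nuclear partner of beta-catenin and a target.

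Values are log2 signal after quantile normalization, so that a difference of 1 is a 2-fold difference. The median of all values, 4.81, served as a mark of dim signal, because no detection calls were used here. Changes are limma estimates with their standard error (SE). A call means an adjusted p under 0.05, with Benjamini-Hochberg adjustment over all 13436 genes. The labels call the 2 arrays of a group biological replicates but name no cultures or litters. The p-values rest on the spread between the arrays within a group, estimated over all 6 groups together.

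All 9 germ cell markers with a probe set, among them Prdm1, Dppa3, Tfap2c and Pou5f1, had a mean above 4.81 in each of the 6 groups. Prdm1 and Dppa3 are genes of the reporters on which cells were sorted, and give no independent check. Dazl was near the mark at E9.5, with 5.92 and 3.81. The mark is a low bar, since Epcam and Vim, listed for other cells, passed it in every group too. Arrays of every group also held signal of markers listed for other cells. Of 10 mesenchyme markers, 5 were above 4.81 in d3, 5 in d6 female, 6 in d3ag6, 7 in d6 male and 4 in E12.5 cells, against 9 at E9.5, where Dcn was the exception. Postn had 8.20 and 7.49 at E9.5. Of 9 blood and macrophage markers 3 were above 4.81 at E9.5, as in d3, d6 female, d6 male and E12.5 cells, and 5 in d3ag6 cells. In that list the embryonic globin Hbb-bh1 had 11.52 and 9.64 at E9.5, while Hba-a1 had 3.26 and 1.60. E9.5 replicate 1 was the higher array of the pair for Postn and both globins. All 8 endothelium markers were above 4.81 in d6 female and d6 male cells, 7 in d3ag6 cells, and 6 in d3, E12.5 and E9.5 cells. In sorted cells measured in bulk, fewer cells of a type and less RNA per cell cannot be told apart.

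**Figure D1:**
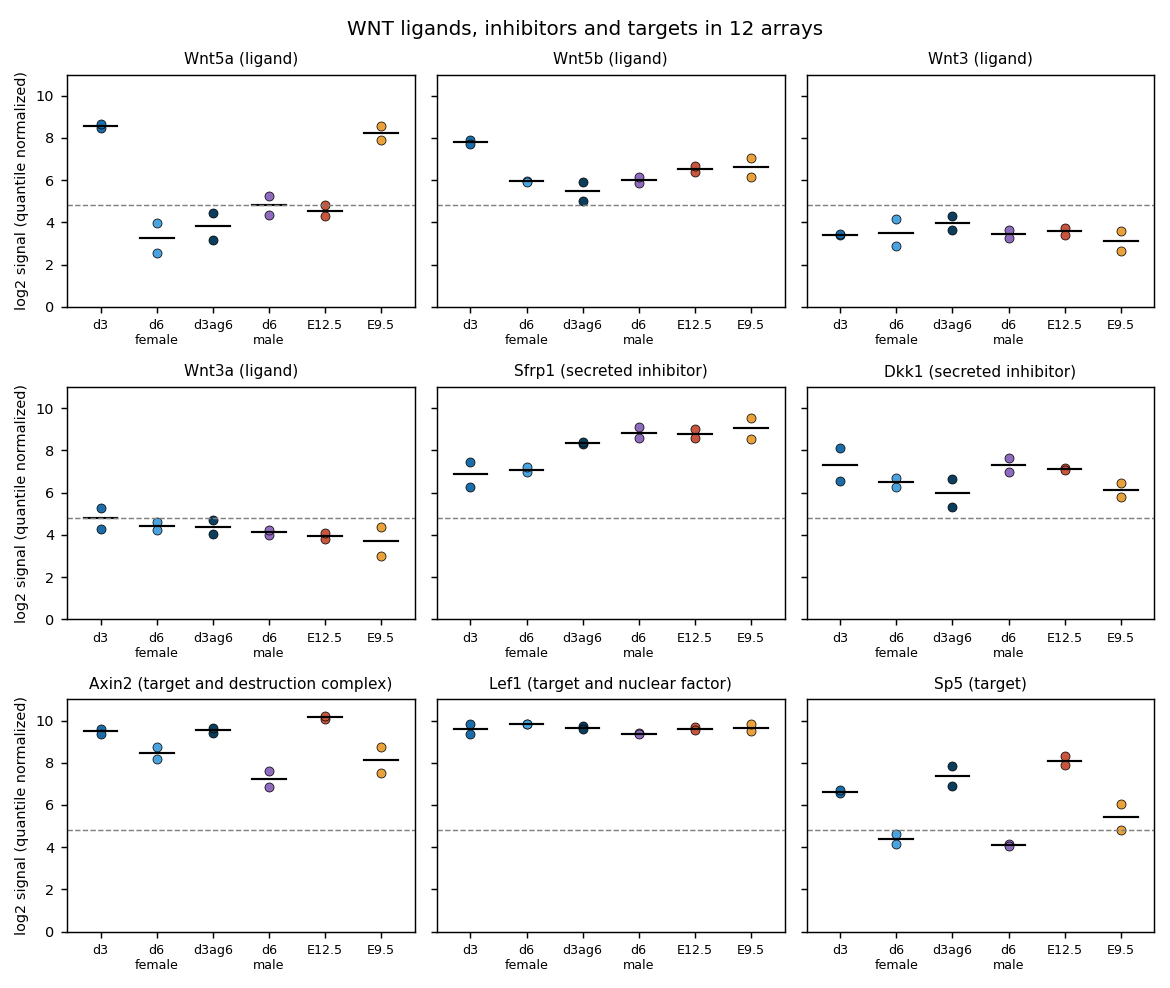
Log2 signal of the 9 genes (vertical axis) in 6 groups, 1 point per array with a bar at the mean of 2 arrays; the dashed line marks 4.81, the median of all values. Wnt5a is high in d3 and E9.5 cells, Sp5 and Axin2 are highest in E12.5 cells, Lef1 lies between 9.34 and 9.84 on every array, and Wnt3 stays below the line.

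The ligand Wnt5a had the widest range of the 9 genes, with group means 5.30 apart. It read 8.47 and 8.68 in d3 cells, 2.55 and 3.99 in d6 female cells, and 3.18 and 4.44 in d3ag6 cells. It read 5.27 and 4.33 in d6 male cells, 4.82 and 4.29 in E12.5 PGCs, and 8.55 and 7.92 in E9.5 PGCs. Thus the d3 and E9.5 arrays overlapped each other at the top and lay above the other 8 arrays. Below them the order was d6 male, E12.5, d3ag6 and d6 female, and in that order the arrays of each neighbouring pair overlapped.

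Wnt5a fell in 5 of the 8 comparisons. It averaged 3.27 ± 1.02 in d6 female cells and 8.57 ± 0.15 in d3 cells (SD, n = 2 each), a change of -5.30 (SE 0.56, adjusted p = 0.00246). In d3ag6 cells it averaged 3.81 ± 0.89, a change of -4.76 (SE 0.56, adjusted p = 0.00118) against the same d3 cells. Both comparisons share the d3 arrays, and the d6 female and d3ag6 means lie in the dim range, where the size of a change is imprecise. With values under 4.81 set to 4.81, each change was -3.76.

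Mesoderm markers mostly moved with these falls from the d3 level, while other lists were divided or mostly went the other way. The summed log2 level of 10 mesoderm markers was 10.12 to 10.22 in d6 female and 9.29 to 9.43 in d3ag6 cells, against 10.97 to 11.24 in d3 cells, and by group mean 7 of 10 were lower in d6 female and 8 of 10 in d3ag6 cells. Tbx3 averaged 4.07 in d6 female, 3.18 in d3ag6 and 7.25 in d3 cells. Of 10 gut endoderm markers 6 were lower in d6 female and 6 in d3ag6 cells, among them Krt8 with 6.13 in d6 female, 6.36 in d3ag6 and 10.37 in d3 cells. Of 10 mesenchyme markers 5 were lower and 5 higher in d6 female cells, and 4 were lower and 6 higher in d3ag6 cells. Twist1 fell, with 3.12 in d6 female, 3.66 in d3ag6 and 6.05 in d3 cells. Col3a1 rose, with 7.17 in d6 female, 8.76 in d3ag6 and 4.74 in d3 cells. Of 8 endothelium markers 7 were higher in d6 female and 5 in d3ag6 cells than in d3 cells. The part of such cells in the d3 levels of the WNT genes described here was not tested.

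In the embryo Wnt5a averaged 4.55 ± 0.38 at E12.5 and 8.24 ± 0.44 at E9.5, a change of -3.68 (SE 0.56, adjusted p = 0.00214). Against the same E9.5 arrays, d6 female cells were lower by -4.97 (SE 0.56, adjusted p = 0.000899) and d6 male cells by -3.44 (SE 0.56, adjusted p = 0.00524). The labels carry array codes: EA1013 for d3, d6 female, d3ag6 and E12.5 arrays, EA0831 and EA0842 for the E9.5 and d6 male arrays. Where E12.5 or d6 female cells are set against E9.5 or d6 male cells, code and group cannot be told apart. Male d6 and E9.5 cells can be compared within codes, and Wnt5a differed there by -3.27 within EA0831 and by -3.60 within EA0842. Every comparison of PGCLCs with PGCs also crosses mouse background and reporter, and with E9.5 cells sex is unknown on 1 side. Culture cannot be told apart from these. Mesenchyme markers moved with Wnt5a in each of these comparisons: by group mean 9 of 10 were lower in d6 female, 9 of 10 in d6 male and 10 of 10 in E12.5 cells than at E9.5. Twist1 averaged 3.12 in d6 female, 3.56 in d6 male and 4.16 in E12.5 cells, against 7.45 at E9.5. The summed log2 level of the list was 11.10 to 11.68 in d6 female, 11.99 on both d6 male arrays and 10.79 to 10.89 in E12.5 cells, against 11.72 to 12.71 at E9.5, and Vim, the brightest marker and the exception in d6 male cells, averaged 11.77 there and 11.37 at E9.5. Their part in the Wnt5a level of E9.5 cells was not tested.

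**Figure D2:**
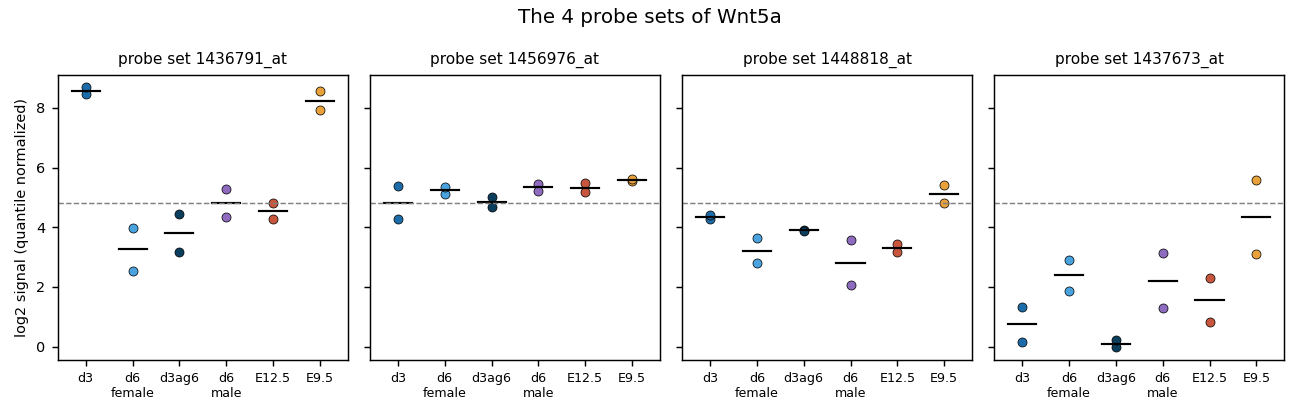
Log2 signal of the 4 Wnt5a probe sets (vertical axis), 1 point per array and a bar at the mean of 2 arrays; the dashed line marks 4.81. Probe set 1436791_at lies far above the line in d3 and E9.5 cells, 1456976_at is nearly flat, and 1448818_at and 1437673_at are below the line on most arrays.

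The other 3 probe sets of Wnt5a did not repeat the size of these differences. Probe set 1448818_at ran in the same direction over a smaller range, with means of 3.21 in d6 female and 4.35 in d3 cells, and of 3.30 at E12.5 and 5.12 at E9.5. Probe set 1456976_at, above 4.81 on 10 of 12 arrays, was nearly flat, with means between 4.83 and 5.58 in the 6 groups. It was highest at E9.5, at 5.58, against 5.24 in d6 female, 5.34 in d6 male and 5.33 in E12.5 cells. It was level at 4.83 in d3ag6 and d3 cells, and d6 female cells lay above d3 cells, against the pattern. Probe set 1437673_at was low in d3 cells, at 0.75, and highest at E9.5, at 4.34. When all 4 probe sets were averaged, the change between d6 female and d3 cells was -1.10 and lost its call (adjusted p = 0.127), whereas the calls in the other 4 of the 5 comparisons held with smaller changes: -1.46 in d3ag6 against d3, -2.29 in d6 female against E9.5, -2.03 in d6 male against E9.5 and -2.13 in E12.5 against E9.5 cells.

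Wnt5b, the close relative of Wnt5a, was also highest in d3 cells. It read 5.98 and 5.93 in d6 female cells and 5.02 and 5.92 in d3ag6 cells, against 7.88 and 7.69 in d3 cells. Both d3 arrays lay above the other 10. It fell by 1.83 in d6 female cells (SE 0.34, adjusted p = 0.0213) and by 2.32 in d3ag6 cells (SE 0.34, adjusted p = 0.00359) relative to d3. Leaving out any 1 of the 4 d6 female and d3 arrays ended the call between these groups (adjusted p = 0.0588 to 0.123).

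In the other groups Wnt5b read 6.37 and 6.67 at E12.5, 7.05 and 6.15 at E9.5, and 5.87 and 6.14 in d6 male cells. The d6 male arrays enclosed both d6 female arrays, and the E12.5 and E9.5 arrays overlapped, with a difference of -0.08 (SE 0.34, adjusted p = 0.892). Its second probe set, 1422602_a_at, gave the same order of the 3 female culture groups, with means of 6.85 in d3, 5.50 in d6 female and 4.96 in d3ag6 cells, but placed d6 male cells, at 5.05, below d6 female cells. The suffix _x_at of the probe set used marks probes that may bind other transcripts too.

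Wnt3 and Wnt3a were dim throughout, and neither was tested. Wnt3 ranged from 2.65 to 4.30, below 4.81 on each of the 12 arrays. Wnt3a ranged from 3.01 to 5.28 and exceeded 4.81 on 1 array, d3 replicate 1. For both genes the arrays of every neighbouring pair of groups overlapped, so no order of the groups can be read. Each has 1 probe set here, and a dim value on 1 probe set does not show that the transcript is absent.

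Among the inhibitors, Sfrp1, a secreted protein that binds WNTs, separated the female cultures of d3 and d6 from the rest. It read 6.25 and 7.47 in d3, 6.98 and 7.20 in d6 female and 8.29 and 8.41 in d3ag6 cells. It read 9.11 and 8.56 in d6 male cells, 8.99 and 8.57 at E12.5, and 9.52 and 8.55 at E9.5. The 4 arrays of d3 and d6 female cells lay below the other 8. The d3 arrays enclosed both d6 female arrays, and the top 3 groups, E9.5, d6 male and E12.5, overlapped.

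Sfrp1 averaged 7.09 ± 0.16 in d6 female cells and 9.04 ± 0.69 in E9.5 PGCs, a change of -1.94 (SE 0.43, adjusted p = 0.0183). It missed the threshold when d6 female replicate 1, d6 female replicate 2 or E9.5 replicate 1 was left out (adjusted p of 0.102, 0.0695 and 0.0876), and in a fit of these 4 arrays alone (adjusted p = 0.0569). Higher values in d3ag6 than in d3 cells did not pass the test (1.49, SE 0.43, adjusted p = 0.0594). The difference passed in 8 of 22 other settings, among them the fit without d3 replicate 2 (2.10, adjusted p = 0.0257), the d3 array with the higher Sfrp1. Against d6 female cells d3ag6 cells differed by 1.26 (SE 0.43, adjusted p = 0.121), and d6 female differed from d6 male cells by -1.74 (SE 0.43, adjusted p = 0.087). Its probe sets disagreed: 1448395_at and 1438620_x_at lay between 5.90 and 7.33 on all 12 arrays, while 1416594_at averaged 3.60 in d3, 4.26 in d6 female and 5.19 in d3ag6 cells. The fifth, 1460187_at, put E12.5 cells, at 1.97, beside d3 and d6 female cells and below d3ag6 cells at 3.11, d6 male cells at 5.16 and E9.5 cells at 5.53.

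Dkk1, which blocks the LRP co-receptors, passed no test in the 8 comparisons. Its arrays ranged from 5.31 to 8.11 and most neighbouring groups overlapped. The d3 arrays, at 6.54 and 8.11, were the farthest apart. The greatest estimated difference was -1.35 in d3ag6 against d3 cells (SE 0.56, adjusted p = 0.177), followed by 1.19 in d6 male against E9.5 cells (SE 0.56, adjusted p = 0.254).

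The targets Axin2 and Sp5 shared a pattern that differed from that of Wnt5a. Sp5 read 6.56 and 6.69 in d3 cells, 4.64 and 4.13 in d6 female cells, and 6.89 and 7.84 in d3ag6 cells. It read 4.16 and 4.06 in d6 male cells, 8.32 and 7.87 in E12.5 PGCs, and 6.07 and 4.82 in E9.5 PGCs. The d6 cells of both sexes were lowest and overlapped each other. Above them the groups followed without overlap in the order E9.5, d3, d3ag6 and E12.5.

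Sp5 averaged 7.36 ± 0.67 in d3ag6 cells and 4.38 ± 0.36 in d6 female cells, a rise of 2.98 (SE 0.43, adjusted p = 0.00581). Both d6 female arrays lie in the dim range, and with values under 4.81 set to 4.81 the rise was 2.55. This call held without any single array. It fell by 2.24 in d6 female relative to d3 cells (SE 0.43, adjusted p = 0.0229), a call that ended when any 1 of these 4 arrays was left out (adjusted p = 0.0787 to 0.13) and when dim genes were kept in the test (adjusted p = 0.0521). In the embryo it rose to 8.09 ± 0.32 at E12.5, against 5.45 ± 0.89 at E9.5 (2.65, SE 0.43, adjusted p = 0.00289). Array code and group cannot be told apart in this rise. Aggregated and E12.5 cells differed by -0.73 (SE 0.43, adjusted p = 0.362). The d3ag6 cells had spent 6 days in aggregates after d3 and the d6 female cells 3 more days in culture, and the effects of aggregation and of the longer time cannot be told apart here.

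Markers of gonadal somatic cells moved with Sp5 between d3ag6 and d6 female cells. Of 12 such markers, 7 were above 4.81 in d3ag6 and 3 in d6 female cells, and their summed log2 level ranged from 9.69 to 9.90 in d3ag6, against 8.51 to 8.70 in d6 female cells. By group mean 11 of the 12 were higher in d3ag6 cells: Amhr2 averaged 7.61 in d3ag6 and 4.49 in d6 female cells, Irx3 8.02 in d3ag6 and 6.11 in d6 female cells, and Wt1 5.55 in d3ag6 and 3.82 in d6 female cells. The exception was Nr5a1, at 1.76 in d3ag6 and 2.05 in d6 female cells. Of 9 blood and macrophage markers, 5 were above 4.81 in d3ag6 and 3 in d6 female cells, summed to 10.30 to 10.53 in d3ag6 and 8.65 to 8.67 in d6 female cells. Of 8 endothelium markers 7 were lower in d3ag6 than in d6 female cells. At E12.5, where Sp5 averaged 8.09, the summed log2 level of the gonadal somatic markers was 9.01 to 9.29. The part of such cells in the Sp5 rise was not tested.

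Axin2 read 9.62 and 9.36 in d3 cells, 8.16 and 8.76 in d6 female cells, and 9.40 and 9.66 in d3ag6 cells. It read 7.59 and 6.86 in d6 male cells, 10.09 and 10.21 at E12.5, and 8.73 and 7.53 at E9.5. E12.5 cells were highest, above every other array, d3ag6 and d3 overlapped next, and d6 male cells were lowest, overlapping E9.5. Axin2 was higher at E12.5, at 10.15 ± 0.09, than at E9.5, at 8.13 ± 0.85 (2.02, SE 0.39, adjusted p = 0.00706). As for Wnt5a, array code and group cannot be told apart in this comparison. Axin2 read 6.86 to 8.73 on the EA0831 and EA0842 arrays and 8.16 to 10.21 on the EA1013 arrays. Of its 2 probe sets the one not used, 1421341_at, was below 4.81 on all arrays, and with both averaged the change was 0.34 and lost its call (adjusted p = 0.548).

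In 4 other comparisons the arrays did not overlap but Axin2 did not pass: -0.62 in d3ag6 against E12.5 cells (SE 0.39, adjusted p = 0.41), 1.07 in d3ag6 against d6 female cells (SE 0.39, adjusted p = 0.149), -1.03 in d6 female against d3 cells (SE 0.39, adjusted p = 0.232) and 1.23 in d6 female against d6 male cells (SE 0.39, adjusted p = 0.16). A fit with the array code as a block, which removes the difference between EA0831 and EA0842 arrays, left the estimates as they were and called the last 3 of these, with adjusted p = 0.0259, 0.0398 and 0.0252. The block does not free the d6 female and d6 male comparison from the code, since all d6 female arrays have EA1013, and code and group cannot be told apart there. It also called Axin2 in d6 male against E9.5 cells (-0.91, adjusted p = 0.0347; adjusted p = 0.215 without the block). Within codes that difference was -1.14 in EA0831 and -0.67 in EA0842.

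**Figure D3:**
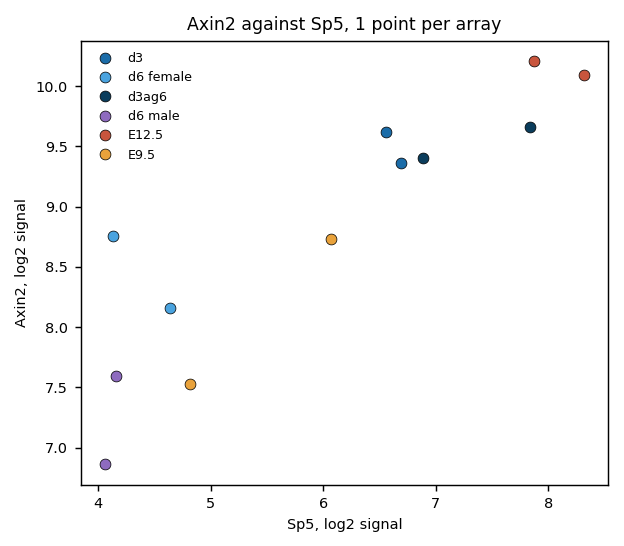
Axin2 log2 signal (vertical axis) against Sp5 log2 signal (horizontal axis), 1 point for each of 12 arrays, coloured by group. The points rise from the d6 male arrays at the lower left to the E12.5 arrays at the upper right (Pearson's r = 0.897 as a description of 12 arrays in 6 groups).

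Over the 12 arrays Axin2 and Sp5 had a Pearson's r of 0.897, and Wnt5a and Wnt5b one of 0.781. Wnt5a had an r of 0.0193 with Axin2 and 0.074 with Sp5. These values describe 12 arrays that share 6 groups, and carry no test. The groups also differ in array code, and the part of code in these values was not tested. Of the E9.5 arrays, replicate 1 was above replicate 2 for 8 of the 9 members, with Lef1 the exception. Among cell markers Twist1 read 8.62 on replicate 1 and 6.28 on replicate 2, and Pdgfra read 8.19 on replicate 1 and 6.67 on replicate 2. Col1a1 went the other way, with 6.05 on replicate 1 and 6.86 on replicate 2, as did Pecam1, with 8.43 and 9.87. The 2 E9.5 arrays also differ in array code, EA0831 for replicate 1 and EA0842 for replicate 2. On the d6 male arrays, which have the same codes, replicate 1 was higher for Wnt5a, Wnt3, Sfrp1, Axin2, Lef1 and Sp5. It was lower there for Wnt5b, Wnt3a and Dkk1. Code and cells cannot be told apart in the E9.5 spread, and the part of either was not tested. Without E9.5 replicate 2, Sp5 passed in d6 female against E9.5 cells (-1.69, adjusted p = 0.034) and in d6 male against E9.5 cells (-1.96, adjusted p = 0.0218).

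Sp5 is shown with its promoter because the TCF and LEF factors bind DNA directly. The 250 bases before the annotated start were searched on both strands for the core of the TCF/LEF motif, written as CTTTGAA or with another ending as CTTTGAT, likewise as CTTTGTA, and finally as CTTTGTT, and no 2 matches shown overlap. RefSeq promoters (GRCm38.p6) were matched for 7 of the 9 genes, in 12 windows, and Wnt5a and Sfrp1 are not among them. The sequences below read 5′ to 3′ on the strand of the gene, with each match in capitals, and are given for Sp5, which moved most among the targets, and for Dkk1, the inhibitor that passed no test; both hold 2 matches.
Sp5, chr2:70474673-70474922, plus strand: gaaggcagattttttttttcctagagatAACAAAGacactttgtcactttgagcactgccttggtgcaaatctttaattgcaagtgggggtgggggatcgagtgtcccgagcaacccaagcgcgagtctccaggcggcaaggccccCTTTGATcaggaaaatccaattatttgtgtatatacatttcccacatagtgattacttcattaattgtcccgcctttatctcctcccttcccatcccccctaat
Dkk1, chr19:30549497-30549746, minus strand: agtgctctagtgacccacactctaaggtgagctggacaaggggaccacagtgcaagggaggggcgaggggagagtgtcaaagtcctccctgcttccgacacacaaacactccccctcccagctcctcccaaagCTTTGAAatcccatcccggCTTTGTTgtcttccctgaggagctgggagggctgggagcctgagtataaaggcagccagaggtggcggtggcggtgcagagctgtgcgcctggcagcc
Of 32851 such windows of the mouse genome, 14.8% hold at least 1 match and 1.43% hold 2 or more. The single window of Axin2 and those of Wnt3 and Wnt3a hold none, while 1 of 3 Wnt5b windows and 1 of 4 Lef1 windows hold 1 match. A match is a string of letters and not a measured site.

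Lef1 stood apart from the other targets by its steadiness. All 12 arrays lay between 9.34 and 9.84, and the group means spanned 0.46. No comparison called it, and the greatest difference was 0.46 in d6 female against d6 male cells (SE 0.19, adjusted p = 0.245). Its second probe set, 1421299_a_at, ranged from 5.31 to 6.93.

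**Figure D4:**
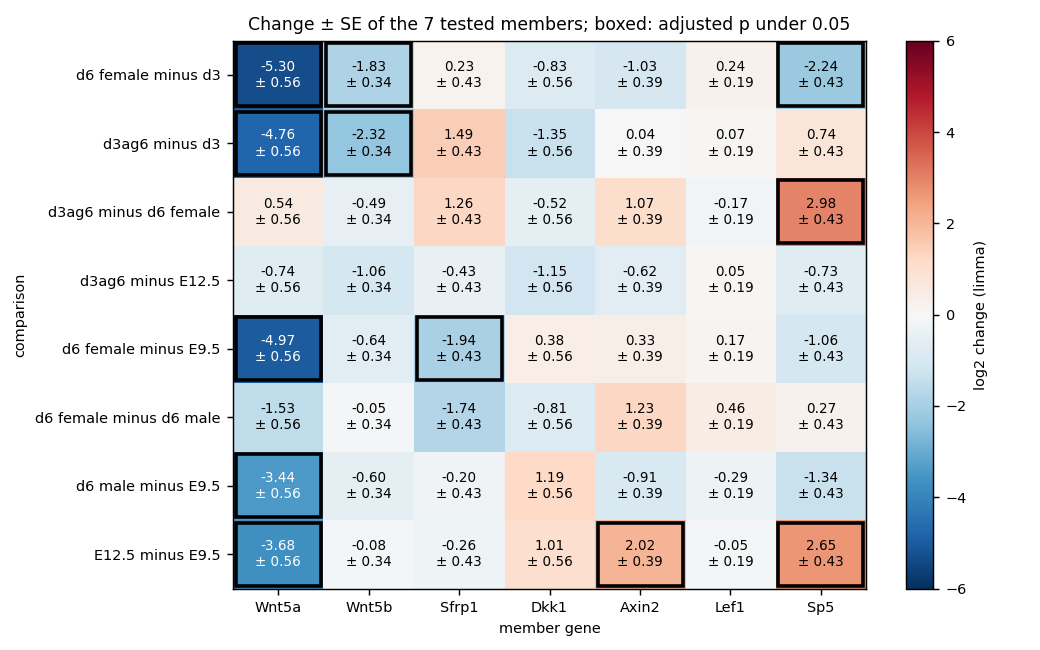
Log2 change and SE of the 7 tested genes (columns) in 8 comparisons (rows), with colour for direction and size; boxes mark an adjusted p under 0.05. Wnt5a is boxed in 5 rows, Sp5 in 3, Wnt5b in 2, and Sfrp1 and Axin2 in 1 each; Dkk1 and Lef1 have no box.

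Read by comparison, the 7 tested genes had these counts of calls, each beside the share of all tested genes called. Between d6 female and d3 cells 3 fell (Wnt5a, Wnt5b and Sp5) where 4.06% of all genes were called, and between d3ag6 and d3 cells 2 fell (Wnt5a and Wnt5b) where 10.6% were. Between d3ag6 and d6 female cells 1 rose (Sp5), with 6.39% of all genes called. Between E12.5 and E9.5 PGCs 2 rose (Axin2 and Sp5) and 1 fell (Wnt5a), with 23.6% called. Between d6 female and E9.5 cells 2 fell (Wnt5a and Sfrp1), with 13.9% called, and between d6 male and E9.5 cells 1 fell (Wnt5a), with 10.6% called.

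In the other comparisons limma called 0 of the 7 tested. Between d3ag6 and E12.5 cells, where 9.03% of all genes were called, 1 gene, Wnt5b, had an unadjusted p under 0.05 (-1.06, SE 0.34, adjusted p = 0.0961). Between d6 female and d6 male cells, where 1.47% were called, 4 genes had one: Wnt5a, Sfrp1, Axin2 and Lef1. With the array code as a block 2 of these, Sfrp1 and Axin2, were called.

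Whether the difference of d3ag6 from d6 female cells departed from the embryonic step from E9.5 to E12.5 was tested as an interaction. The d3ag6 cells were made from d3 cells, and d6 female cells are not their precursors, so that "step" here means a difference between groups. Of the groups in this test only E9.5 has the codes EA0831 and EA0842, and code and group cannot be told apart in it. It called Wnt5a, with 5.75% of all genes called: the step was 0.54 (SE 0.56) in d3ag6 against d6 female cells and -3.68 (SE 0.56) in E12.5 against E9.5 cells, a difference of 4.22 (SE 0.79, adjusted p = 0.0174). It missed the threshold when d6 female replicate 1, d3ag6 replicate 2, E12.5 replicate 1 or E12.5 replicate 2 was left out (adjusted p of 0.0565, 0.0647, 0.052 and 0.0728), and with the mean of all probe sets (1.77, adjusted p = 0.0659). For Sp5 the steps were 2.98 and 2.65 and differed by 0.33 (SE 0.60, adjusted p = 0.807), and for Axin2 they were 1.07 and 2.02 and differed by -0.95 (SE 0.56, adjusted p = 0.382).

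A wider list of 122 WNT pathway genes, apart from the 9, had 117 with a probe set and 89 tested. It held ligands and their secretion factors, inhibitors, receptors, cytoplasmic and nuclear components, targets and planar polarity genes. Between d6 female and d3 cells 10 of the 89 fell and 0 rose, or 11.2% against 4.06% of all genes. Of these, 6 belong to the 16 tested targets: Fgf8, Cdx2, Ccnd1, Sp8, Bambi and Notum. The median of the 89 was -0.03 and that of all genes -0.01. The greatest falls were in the growth factor Fgf8 (2.06 ± 1.64 in d6 female and 6.12 ± 0.20 in d3 cells; -4.06, SE 0.77, adjusted p = 0.0231) and in Celsr1, a cadherin of planar polarity (3.45 ± 0.43 in d6 female and 7.49 ± 0.32 in d3 cells; -4.04, SE 0.42, adjusted p = 0.0023). The Fgf8 call was lost without d3 replicate 1, d3 replicate 2 or d6 female replicate 2 (adjusted p up to 0.119), and its d6 female values lie in the dim range.

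Between d3ag6 and d3 cells 12 fell and 8 rose, or 22.5% against 10.6% of all genes. Rspo3, an R-spondin that raises WNT signalling at the receptor, read 3.65 and 2.94 in d3ag6 and 8.27 and 7.74 in d3 cells (-4.71, SE 0.34, adjusted p = 0.000131). Rspo1, an R-spondin needed for ovary development in the mouse, averaged 5.97 in d3ag6 and 2.51 in d3 cells, a rise of 3.46 (SE 0.73, adjusted p = 0.0175) over a dim value. The Rspo1 call was lost without d3 replicate 2, d3ag6 replicate 1 or d3ag6 replicate 2 (adjusted p up to 0.112) and when dim values were set to 4.81. The nuclear cofactor Pygo1 rose by 1.87 (SE 0.40, adjusted p = 0.0188), which depended on the same 3 arrays (adjusted p up to 0.116 with 1 of them left out).

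**Figure D5:**
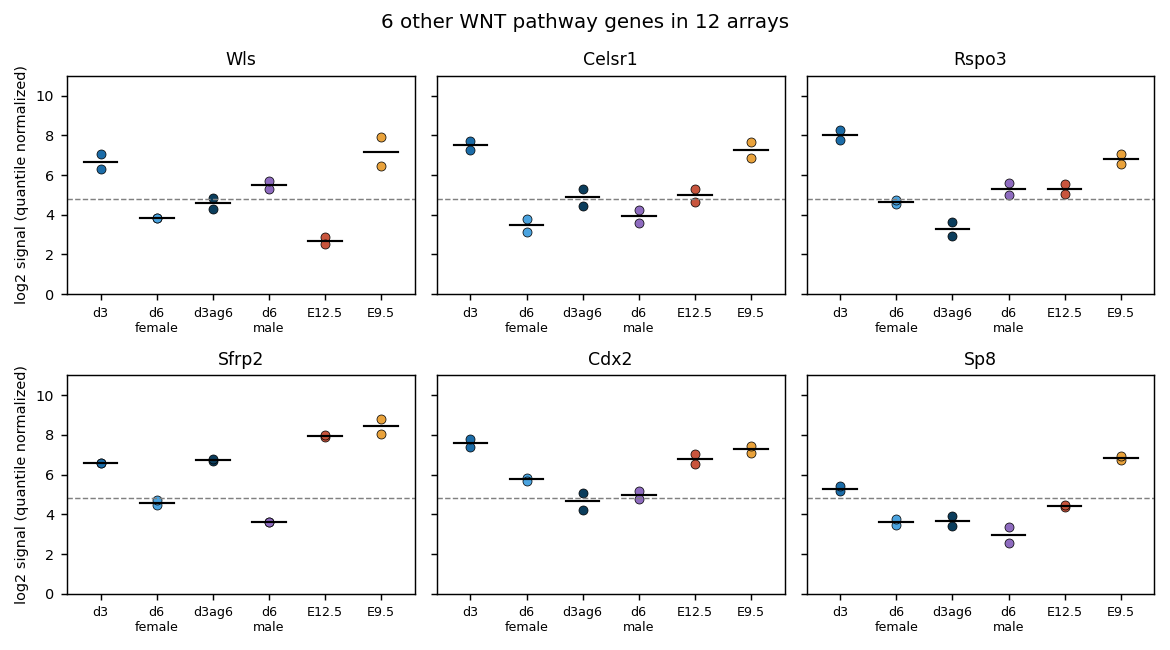
Log2 signal of 6 other WNT pathway genes (vertical axis) in 6 groups, 1 point per array and a bar at the mean of 2 arrays; the dashed line marks 4.81. Wls, Celsr1 and Rspo3 are high in d3 and E9.5 cells, and Sfrp2 is low in d6 female and d6 male cells.

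Between d3ag6 and d6 female cells 4 rose and 3 fell, or 7.87% against 6.39% of all genes, a share near the background. Sfrp2, a relative of Sfrp1, rose (6.71 and 6.77 in d3ag6, 4.46 and 4.70 in d6 female cells; 2.16, SE 0.23, adjusted p = 0.00165). The ligand Wnt7b fell (6.25 and 6.04 in d3ag6, 8.42 and 7.77 in d6 female cells; -1.95, SE 0.29, adjusted p = 0.00699), a call lost without d6 female replicate 1 or d3ag6 replicate 2 (adjusted p up to 0.0648). Against E12.5 PGCs, 9 were lower and 2 higher in d3ag6 cells, or 12.4% against 9.03%. Cdx2, a homeobox gene of posterior tissues, read 4.24 and 5.09 in d3ag6 and 6.53 and 7.06 in E12.5 cells (-2.13, SE 0.31, adjusted p = 0.00438).

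Set against E9.5 PGCs, 19 of the 89 were lower and 6 higher in d6 female cells, or 28.1% against 13.9% of all genes, and 15 were lower and 3 higher in d6 male cells, or 20.2% against 10.6%. Both share the E9.5 arrays. Sfrp2 fell by 3.85 in d6 female cells (SE 0.23, adjusted p = 7.87e-05) and by 4.81 in d6 male cells (SE 0.23, adjusted p = 3.99e-05). Wnt7b was higher by 2.10 in d6 female (SE 0.29, adjusted p = 0.0023) and by 2.45 in d6 male cells (SE 0.29, adjusted p = 0.00124). The zinc finger gene Sp8, a relative of Sp5, read 3.35 and 2.58 in d6 male and 6.75 and 6.92 in E9.5 cells (-3.87, SE 0.27, adjusted p = 0.000183). As described for Wnt5a, 9 of 10 mesenchyme markers were lower in d6 female and 9 of 10 in d6 male cells than at E9.5, the direction of the lower genes. Of 8 endothelium markers 7 were higher in d6 female and 8 in d6 male cells than at E9.5, the direction of Wnt7b. The part of either was not tested. Between d6 female and d6 male cells 2 of the 89 were called, Porcn and Btrc, or 2.25% against 1.47%. The Porcn call was lost when any 1 of the 12 arrays was left out. The Btrc call was lost when any 1 d6 female, d6 male or E12.5 array was left out. Both were also lost without the filter on dim genes, with the mean of all probe sets and with only the arrays compared.

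Between E12.5 and E9.5 PGCs 11 fell and 9 rose, or 22.5% against 23.6% of all genes, which is no more than the background. Wls, the carrier that WNT proteins need for secretion, read 2.89 and 2.50 at E12.5 and 7.91 and 6.43 at E9.5 (-4.47, SE 0.45, adjusted p = 0.000346). The corepressor Tle3 fell by 2.62 (SE 0.31, adjusted p = 0.000715). The receptors Fzd5 and Fzd6 rose, Fzd5 by 2.20 (SE 0.25, adjusted p = 0.000605) and Fzd6 by 1.75 (SE 0.23, adjusted p = 0.00113). Wls was also called in the interaction (5.21, SE 0.64, adjusted p = 0.00345). Its d6 female values, 3.84 and 3.81, and its E12.5 values lie in the dim range, where the size of a change is imprecise. As for Wnt5a, array code and group cannot be told apart between E12.5 and E9.5 cells.

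By Pearson's r over the 12 arrays, the tested genes most like each variable member were as follows. For Wnt5a they were Zfp423 (r = 0.963) and Sox3 (r = 0.961). Sox3 averaged 8.43 in d3, 4.93 in d6 female, 5.20 in d3ag6, 5.67 in d6 male, 6.14 in E12.5 and 8.69 in E9.5 cells, and so was also high in d3 and E9.5. For Wnt5b they were Ang (0.928) and Plxdc2 (0.898), and for Sfrp1 Rtn4rl2 (0.926) and Tspyl4 (0.904). For Axin2 they were Abcb6 (0.968) and Wtip (0.961), and for Sp5 Rars2 (0.953) and Pgd (0.949). These are the highest values in a search over all tested genes on arrays that share 6 groups, and they carry no test.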

How the data were processed

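The deposited table holds 1 value per probe set for 12 Affymetrix mouse arrays. The values run from 0 to about 14 and were read as log2 signal, as deposited by the authors; the summarisation and normalization before deposit are not given in the sources used here. Per the labels' protocols, RNA of sorted cells was amplified as cDNA and labelled as biotin cRNA. Of 45101 probe sets, 34958 have 1 gene in the platform annotation, 932 several and 9211 none, and 34754 of the first matched a RefSeq gene. Array medians differed by 0.14, and the values were quantile normalized with limma 3.58.1 in R 4.3.3. Each gene was read from its probe set of highest mean, and genes with fewer than 2 arrays above 4.81, the median of all values, were not tested.

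All 12 arrays entered 1 limma model of 6 group means with 6 residual degrees of freedom, with eBayes, two-sided tests and Benjamini-Hochberg adjustment over 13436 genes, checked on simulated data. Groups come from the sample titles. Of the other WNT genes, the text names those among the 2 highest and 2 lowest called changes of a comparison with groups that do not overlap; likeness is Pearson's r over the arrays. The members and lists were chosen with earlier results of these data known. Replicate numbers pair the samples of d6 male and E9.5 cells only, which share array codes in the labels (r = 0.547 between their replicate differences over 13436 genes). Arrays give no read depth, and their number, 2 per group, limits the precision. The alternatives were values as deposited, other filters, the mean of all probe sets, dim values set to the median, blocks for replicate number and array code, fewer arrays, another eBayes setting and leaving out each array.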

Additional observations from a re-analysis of the deposited data

Results flagged for a closer look

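For Wnt5a the difference of d3ag6 from d6 female cells departed from the embryonic step, by a test of the difference itself. The former was 0.54 (SE 0.56) in d3ag6 against d6 female cells, and the latter -3.68 (SE 0.56) in E12.5 against E9.5 PGCs. They differed by 4.22 (SE 0.79, limma adjusted p = 0.0174). Of these groups only E9.5 has the codes EA0831 and EA0842, and code and group cannot be told apart here. Wnt5a was below 4.81 on both d6 female arrays, at 2.55 and 3.99, and on both d3ag6 arrays, at 3.18 and 4.44. With values under 4.81 set to 4.81 the change between these groups vanished. The change in E12.5 against E9.5 PGCs was then -3.42, and the difference 3.42. The call was lost without d6 female replicate 1, d3ag6 replicate 2, E12.5 replicate 1 or E12.5 replicate 2. It was also lost with the mean of all probe sets (1.77, limma adjusted p = 0.0659).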

How the results depend on the processing

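Of 63 combinations of a tested gene and a contrast, 13 were called, and 7 of these stayed called under every alternative run; 9 uncalled ones were called under some alternative, 41 under none, and 0 changed from a call in one direction to the other. Among d6 female and d3 cells 3 genes were called, and fewer when 1 array of these groups was left out. The count was 4 with the array code block, and 2 without the filter on dim genes or with the mean of all probe sets. For d3ag6 against d3 cells it was 2, and 3 in several settings, among them the array code block and the mean of all probe sets. For E12.5 against E9.5 cells it was 3, and 2 with the mean of all probe sets. For d3ag6 against d6 female cells the count was 1, and 2 with the array code as a block, with only the arrays compared, or with only the EA1013 arrays. For d6 female against E9.5 cells it was 2, 1 with only the arrays compared, and 1 to 3 when 1 array was left out. For d6 female against d6 male cells it was 0, and 2 with the array code block. For d6 male against E9.5 cells it was 1, 2 with the array code block, and 1 to 3 when 1 array was left out. For the difference between the steps it was 1, 0 with the mean of all probe sets, and 0 to 1 when 1 array was left out. The replicate block changed none of these calls: with it Wnt5a in d6 male against E9.5 cells stayed at -3.44. The number of all genes called moved by more than 1.5 times with the setting: 112 to 823 (545 as reported) for d6 female against d3, 588 to 2121 (1430) for d3ag6 against d3, 193 to 1561 (859) for d3ag6 against d6 female, 363 to 1907 (1213) for d3ag6 against E12.5, 560 to 2924 (1872) for d6 female against E9.5, 2 to 988 (197) for d6 female against d6 male, 291 to 2004 (1424) for d6 male against E9.5, 1387 to 4404 (3170) for E12.5 against E9.5, and 268 to 1388 (773) for the difference between the steps. The cause of these changes was not tested. Signals under 4.81 give no reliable order, and a fit without 1 array assumes that the array left alone varies like the other groups.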
